A study of Homo sapiens with 12 samples.

Results

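Mitochondrial β-oxidation was described across PPARγ chromatin immunoprecipitation (ChIP-seq) peaks through 10 genes: HADHA, HADHB, HADH, ACADVL, ACADL, ACADM, ACADS, ACAA2, ETFDH and DECR1. The 10 genes were chosen for their function, but with earlier results of these data known. They came out of 19970 protein-coding genes on chromosomes 1 to 22 and X, and all 10 were found in the annotation. A peak was assigned to a gene when its summit lay within 50 kb of the gene span (hg38), and a peak near both HADHA and HADHB was counted once. A peak of the pooled libraries of a group is called reproducible when a peak of each single library of that group overlapped it by at least 1 bp.

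The cells were MCF10A-NeuT, a derivative of the human breast epithelial line MCF10A that carries NeuT, an activated form of the ErbB2 growth factor receptor. Retrovirus made with pMSCV-IRES-GFP gave stable expression of PPARg WT or of PPARg K154/155Q, here called wild type and KQ. In KQ, neighbouring lysines are replaced by glutamine. Both groups therefore share the NeuT background and carry a transgene on top of the cells' own PPARG gene, and with the PPARγ antibody, receptor made from that gene cannot be told apart from the transgene product. Each group had 2 ChIP libraries, and the labels do not say whether these came from separate cultures. On the antibody the descriptions differ, with PPARγ given for each sample and Flag given for the series. The vector control and input libraries were not analysed here. Peak lists hold no expression values, so the labelled cell type was not checked against marker genes.

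Mitochondrial β-oxidation shortens fatty acids by a repeated cycle of dehydrogenation, hydration, a further dehydrogenation and thiolysis. Chain-length-specific acyl-CoA dehydrogenases open the cycle, and the trifunctional protein completes it for long chains in the inner membrane, while separate enzymes act on shorter chains in the matrix. PPAR receptors bind DNA as dimers with RXR at direct repeats of AGGTCA with a single base between them, and β-oxidation genes are classical PPAR targets in liver, heart and fat. The question behind the series was how the KQ change affects binding of PPARγ to the genome.

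The sequences that could be read under the peaks came from RefSeq promoter windows (GRCh38.p14, the assembly of hg38), which run from 250 bases before to 50 bases after an annotated start. Of the 10 genes, 8 had such a window, and ETFDH and DECR1 had none. The windows were searched on both strands for the direct repeat, AGGTCA followed by any base N and a further AGGTCA, in which 12 of the 13 letters are compared. The ACAA2 promoter is shown because a wild-type and a KQ summit both fell in it. Its capitals mark the closest match to the repeat (chr18:49813534-49813783, minus strand, the 250 bases before the start):
ACAA2: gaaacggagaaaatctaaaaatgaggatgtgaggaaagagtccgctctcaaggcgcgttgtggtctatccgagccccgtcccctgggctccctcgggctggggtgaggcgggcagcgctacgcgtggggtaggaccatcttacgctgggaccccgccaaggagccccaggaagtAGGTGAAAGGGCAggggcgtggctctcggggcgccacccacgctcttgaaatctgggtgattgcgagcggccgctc
The window before the DLG4 start inside ACADVL is shown because it holds one side of the strongest wild-type site of all 10 genes. The summit itself lies just beyond the window. Its capitals mark the 111 bases that lie within the pooled KQ peak (chr17:7220051-7220300, minus strand):
DLG4: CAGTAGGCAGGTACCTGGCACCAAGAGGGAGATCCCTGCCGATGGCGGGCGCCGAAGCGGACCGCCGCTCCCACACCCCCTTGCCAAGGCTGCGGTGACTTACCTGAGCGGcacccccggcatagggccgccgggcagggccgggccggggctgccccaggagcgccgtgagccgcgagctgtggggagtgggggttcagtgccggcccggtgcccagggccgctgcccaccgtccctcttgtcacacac
The stretch between C4orf46 and ETFDH is shown because a wild-type summit lay in it. Its capitals mark the 127 bases that lie within that wild-type peak (chr4:158672057-158672295, minus strand):
C4orf46: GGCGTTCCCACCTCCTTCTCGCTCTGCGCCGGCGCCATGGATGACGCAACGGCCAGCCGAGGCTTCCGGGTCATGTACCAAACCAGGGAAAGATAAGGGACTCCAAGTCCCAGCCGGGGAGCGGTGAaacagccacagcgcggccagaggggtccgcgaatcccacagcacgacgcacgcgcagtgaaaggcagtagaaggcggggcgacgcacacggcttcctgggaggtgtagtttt

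The ACAA2 promoter match, AGGTGAAAGGGCA, lay under the summit of the pooled wild-type peak, but not under that of either single wild-type library. Those lay 30 and 272 bp from the pooled summit. It differs from the repeat by C5G and T11G, with positions counted from 1 at the 5′ end of the repeat and the repeat's base first. The match spans chr18:49813597-49813609, the pooled wild-type summit is at 49813608, inside it, and the pooled KQ summit at 49813622 lies 13 bp from it. A match with 2 or fewer mismatches is held by 2.97% of all 35116 promoter windows of this length. Among the 305 windows that hold a reproducible wild-type summit the share was 13.4%, and among the 17 that hold a reproducible KQ summit it was 17.6%. The window at the inner start of ACADVL (chr17:7219688-7219987) held a match with 3 mismatches, GGGTCAGAGCTCG, inside the wild-type peak and 398 bp from its summit. This match lay outside the pooled KQ peak, 414 bp from the KQ summit. A match with 3 or fewer mismatches is held by 20.9% of all windows. Such matches also stood outside pooled peaks. The ACADS window held one with 3 mismatches, though ACADS had no pooled peak, and the window at an inner HADH start held one 7350 bp from the nearest wild-type summit. The window of LOC107986298, a gene near the upstream HADH site, held a match with 2 mismatches that lay outside that peak, 309 bp from its summit. The DLG4 window shown above and both C4orf46 windows had no match closer than 4 mismatches, a distance that 75.0% of windows reach. No sequence was read here for the bases under the other summits.

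β-oxidation genes had wild-type sites at 8 of 10 genes and KQ sites at 4 of 10 when only reproducible peaks were counted. The 8 genes with a reproducible wild-type peak were all but ACADL and ACADS, while 37.7% of protein-coding genes had such a peak. The 4 genes with a reproducible KQ peak were HADHA, HADHB, ACADVL and DECR1, against 2.68% of protein-coding genes. HADHA and HADHB adjoin each other and share their peaks, so the 4 genes stand for 3 loci. Counting every pooled KQ peak added HADH, ACAA2 and ETFDH and gave 7 of 10 genes, where 16.4% of protein-coding genes had one. Every pooled wild-type peak gave the same number of genes as reproducible ones, 8 of 10, against 67.1%. The same 4 genes with a KQ peak had a reproducible peak in both groups, against 2.54% of protein-coding genes. All 4 had it within the gene span, against 0.826%, while 6 of 10 had a reproducible wild-type peak within the span, against 13.7%. The member genes had a median length of 38.2 kb against 24.2 kb for all protein-coding genes, so their windows are somewhat wider, and the part of length in these shares was not tested.

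**Figure D1:**
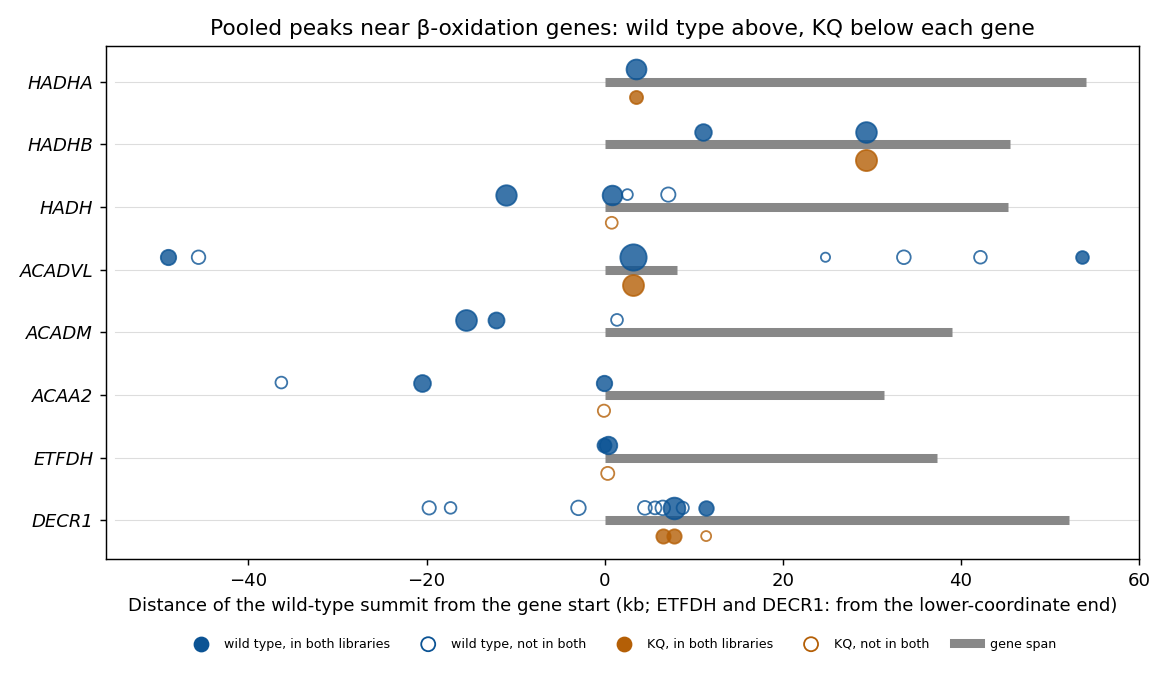
Pooled peaks near the 8 genes with a wild-type site, by distance of the wild-type summit from the gene start in kb (for ETFDH and DECR1 from the lower-coordinate end), with wild type drawn above and KQ below the gene span and circle area proportional to the authors' fold. KQ circles are drawn at the wild-type summit they overlap. Filled circles are reproducible peaks, each site is drawn at 1 gene, and no KQ circle lies more than 5 kb outside a gene.

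Across the 10 genes the pooled wild-type list held 31 sites and the pooled KQ list held 9, and all 9 KQ peaks overlapped a wild-type peak. Such overlap was also common over the whole lists. There 2289 pooled wild-type peaks overlapped a peak of the pooled KQ list, which held 2846 peaks. Of all reproducible KQ peaks, 88.4% overlapped a reproducible wild-type peak. The share of all pooled KQ peaks was not computed. Of the 31 wild-type sites 16 were reproducible, or 51.6%, against 31.9% of all pooled wild-type peaks. Of the 9 KQ peaks 5 were reproducible, against 12.4% of all pooled KQ peaks. Within the wild-type list the 16 reproducible sites had folds between 5.58 and 23.6 with a median of 10.1, and all 8033 reproducible wild-type peaks had a median of 9.03. Within the KQ list the 5 reproducible peaks had a median fold of 6.99, and all 354 had 6.85. Fold here is the authors' enrichment over the peak caller's background.

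In single libraries, wild type gave 22 and 31 peaks near these genes and KQ gave 7 and 8. The groups did not overlap, with means of 26.5 ± 6.36 for wild type and 7.5 ± 0.707 for KQ (SD, n = 2). The ratio of 3.53 gave p = 0.33 in a two-sided exact permutation test with n = 2 per group, the smallest value this design allows. Over the whole lists the ratio was 15.7. As a share of its list, each KQ library had more peaks near these genes, 0.554% and 0.773%, than each wild-type library, 0.121% and 0.174% (exact permutation p = 0.33, n = 2 per group). This share was computed after the counts were seen, and it depends on the length of the lists. The wild-type lists are far longer. The peak ratio shrank with the window, to 2.29 within 5 kb and to 1.92 inside the gene spans.

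**Figure D2:**
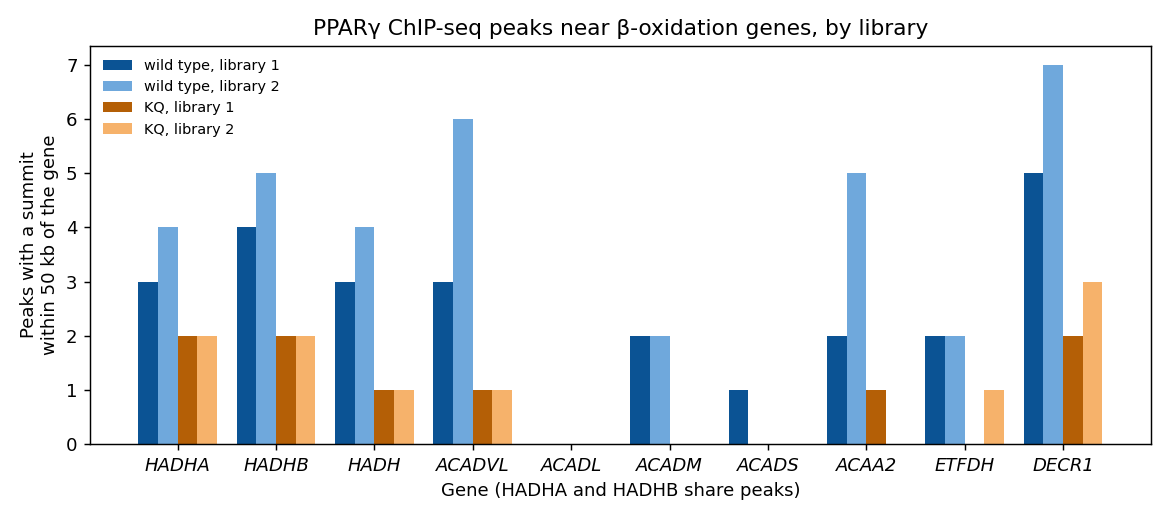
Number of peaks with a summit within 50 kb of each gene in the 4 single-library lists. HADHA and HADHB repeat the peaks they share, ACADL has none in any library, and ACADS has 1 peak in wild-type library 1 only.

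HADHA and HADHB encode the α and β subunits of the mitochondrial trifunctional protein, and they lie head to head on chromosome 2. Their windows held 3 reproducible wild-type sites, 2 of which had a reproducible KQ peak. The strongest KQ site was inside HADHB, 29.3 kb downstream of its start (wild-type peak chr2:26274063-26274421, KQ peak chr2:26274046-26274436). The summits of the 2 pooled peaks were 11 bp apart. Tags (mapped reads) stacked at the summit, recovered from the authors' fold and p, numbered 64 and 28 with wild type. KQ gave 51 and 41 tags. The total number of reads per library is unknown here, so tag numbers of different libraries are not on a common scale. The caller's background there was 3.5 and 1.57 tags with wild type, against 3.1 and 1.27 with KQ. The ratios of tags to background were 18.3 and 17.9 with wild type and 16.4 and 32.3 with KQ, so the groups overlapped. This site ranked 1st by fold among the 1035 peaks of KQ library 2 and at place 7 of 1263 in library 1. In the wild-type libraries it took place 541 of 18143 and place 1012 of 17859.

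The second trifunctional site lay inside HADHA, 3.51 kb downstream of its start (chr2:26240964-26241259). It had 41 and 30 tags with wild type and 21 and 27 with KQ. Ratios of tags to background were 11.7 and 33.5 with wild type and 4.83 and 8.79 with KQ. Its fold was 13.5 in the pooled wild-type list, at place 1126 of 25164, and 5.85 in the pooled KQ list, at place 734 of 2846. The remaining site, inside HADHB 11.0 kb from its start, was a wild-type site only, with 10 and 7 tags and no peak in either KQ library. No peak overlapped the start of either gene. The promoter windows of both held no match closer than 4 mismatches.

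The acyl-CoA dehydrogenases, which carry out the opening step on chains of different length, ranged from the strongest site of the set to none. ACADVL, which acts on very long chains, had a wild-type fold of 23.6, above those of the other 9 genes, at place 59 of 25164 peaks. The peak, chr17:7219799-7220594, had its summit 3.23 kb inside the gene. That position is 416 bp downstream of the inner annotated ACADVL start and 304 bp upstream of a start of DLG4, a neuronal scaffold gene on the opposite strand. The DLG4 window printed above ends short of it. Tags at the summit numbered 67 and 29 with wild type and 49 and 35 with KQ. Relative to background this was 22.9 and 44.0 with wild type and 13.2 and 13.8 with KQ, with no overlap between the groups. In the KQ libraries it took place 27 and place 24 by fold, and it was in place 3 of the pooled KQ list. In all, 9 protein-coding genes had this KQ peak within 50 kb, among them the autophagy gene GABARAP, so its assignment to ACADVL rests on position only. The window also held 2 weaker reproducible wild-type sites, 49.0 kb before the start and 45.4 kb beyond the gene, with folds of 8.06 and 5.58 and no KQ peak.

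ACADM, the medium-chain dehydrogenase, had reproducible sites with wild type only. They lay 15.6 and 12.2 kb upstream of its start and inside the neighbouring gene SLC44A5. The farther one (chr1:75708915-75709283, pooled fold 14.8) had 34 tags in wild-type library 1, with an exact Poisson 95% interval of 23.5 to 47.5. Wild-type library 2 had 10 tags there, with an interval of 4.8 to 18.4. The caller's background at this site was 0.854 and 0.896 tags. Over their whole lists the libraries had a median of 15 and 8 tags at a summit, so the difference between them at this site was not tested. The nearer one (chr1:75712379-75712688) had 15 and 10 tags. Neither KQ library had a peak in the ACADM window, and the nearest pooled KQ peak was 174 kb from the gene.

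ACADL and ACADS had no pooled peak in either group. ACADL encodes the long-chain dehydrogenase, and its nearest pooled peaks were 165 kb away with wild type and 269 kb with KQ. ACADS, the short-chain dehydrogenase, had a single peak of 8 tags inside the gene in wild-type library 1 (chr12:120726001-120726146), absent from library 2 and from the pooled list. Its nearest pooled peaks were 123 kb away with wild type and 197 kb with KQ. A peak list shows only what passed the caller's threshold, so binding below it is not detectable here.

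HADH and ACAA2, which serve the last steps of the cycle in the matrix, had wild-type sites at or near their starts that were found in 1 of the 2 KQ libraries. HADH encodes the hydroxyacyl-CoA dehydrogenase for medium and short chains. Its start-proximal site, 799 bp inside the gene (chr4:107990530-107990809), had 23 and 15 tags with wild type and 14 in KQ library 1, with no peak in KQ library 2. A further site lay 11.1 kb upstream (chr4:107978707-107979008), with its summit 104 bp downstream of the annotated start of LOC107986298. It had 19 and 8 tags with wild type and 10 in KQ library 2. It was missing from KQ library 1 and from the pooled KQ list. The HADH sites had pooled wild-type folds of 13.2 and 14.3.

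ACAA2 encodes the thiolase that releases acetyl-CoA. Its promoter site (chr18:49813475-49813991), with the summit 75 bp upstream of the start, had 23 and 19 tags with wild type. KQ library 1 had 16 tags there, and KQ library 2 had no peak. Its pooled wild-type fold of 8.17 placed it at 4897 of the 8033 reproducible wild-type peaks, in the lower part of the list. The summit in KQ library 1 was 30 bp from the pooled wild-type summit. A second site, 20.5 kb upstream inside MYO5B, had 38 and 13 tags with wild type and no KQ peak.

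ETFDH passes electrons from the acyl-CoA dehydrogenases to ubiquinone. It had 2 adjacent reproducible wild-type sites at its lower-coordinate end. The inner one (chr4:158672555-158672808), 349 bp inside the gene, had 22 and 10 tags with wild type, 19 in KQ library 2 and no peak in KQ library 1. The outer one, in the C4orf46 stretch printed above (chr4:158672169-158672404), had 23 and 11 tags with wild type and no KQ peak.

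DECR1, the reductase needed for unsaturated fatty acids, had 9 pooled wild-type peaks in its window, more than any other member, but only 2 of them were reproducible, against 3 each for ACADVL, HADHA and HADHB. Of the 9 peaks 6 lay inside the gene between 4.52 and 11.4 kb from its lower-coordinate end. The strongest (chr8:90008846-90009387, pooled wild-type fold 16.1) had 62 and 35 tags with wild type and 28 and 32 with KQ. Relative to background this was 15.2 and 39.1 with wild type and 11.3 and 11.5 with KQ. A neighbouring site (chr8:90007902-90008099) was reproducible with KQ, with 14 and 16 tags, but was called in wild-type library 2 alone, with 11 tags. It was the single reproducible KQ peak of the set without a reproducible wild-type peak, and 88.4% of all reproducible KQ peaks had one. A further site (chr8:90012596-90013043) had 23 and 13 tags with wild type and 17 in KQ library 2.

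Of the 31 wild-type sites 4 were called in all 4 libraries, 6 in 3, 7 in 2, 9 in 1, and 5 in the pooled list alone. Of all pooled wild-type peaks 1.24% were called in all 4 libraries. The 4 were the ACADVL site, the HADHB site at 29.3 kb, the HADHA site and the strongest DECR1 site. At 3 of these 4 both wild-type ratios of tags to background were above both KQ ratios, and at the HADHB site they overlapped. Among all 313 sites called in all 4 libraries wild type was higher without overlap at 68.4%, and KQ was higher without overlap at 1.92%. The share near these genes was thus close to that over all such sites. Such sites had to pass the caller in both KQ libraries, so sites with weak KQ signal are not among them. Median background over all peaks of a list was 1.41 and 0.448 tags with wild type, against 2.01 and 1.77 with KQ. The ratio of wild-type library 2 was the highest of the 4 at the ACADVL, HADHA and DECR1 sites, and its background was the lowest there. The part of background in these ratios was not tested.

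**Figure D3:**
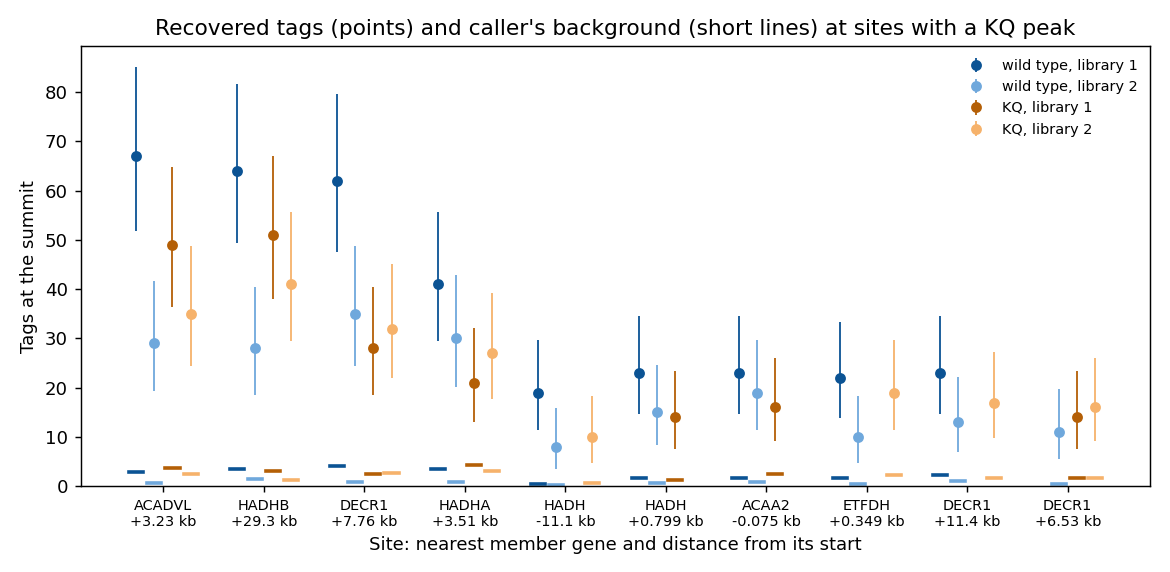
Tags recovered at the summit in each library (points, with exact Poisson 95% intervals) and the caller's background (short lines) at the 10 sites where a KQ library had a peak. Sites are named by gene and distance from its start in kb (for ETFDH and DECR1 from the lower-coordinate end). No point is drawn where a library had no peak, and at the HADHB site the KQ values of 51 and 41 lie between the wild-type values of 64 and 28. Tag numbers of different libraries are not on a common scale.

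Ranked by fold among the 313 sites reproducible in both groups, the HADHB site took place 2 in the KQ list and place 118 in the wild-type list. The ACADVL site took place 3 with KQ and place 20 with wild type. The DECR1 site took place 149 with KQ and 94 with wild type, and the HADHA site took place 217 and 134. The HADHB and ACADVL sites were thus higher in the KQ order, and the DECR1 and HADHA sites were higher in the wild-type order. The places describe these pooled lists and have no replicate error of their own. In single libraries the HADHB site was ahead of the ACADVL site in both KQ libraries and behind it in both wild-type libraries. Taking only the 354 reproducible wild-type peaks of lowest q, the length of the KQ list, 4 genes had a wild-type peak. They were the same 4 genes that had a KQ peak. The share of all protein-coding genes was not computed for this shortened list, so whether the count is unusual was not tested.

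**Figure D4:**
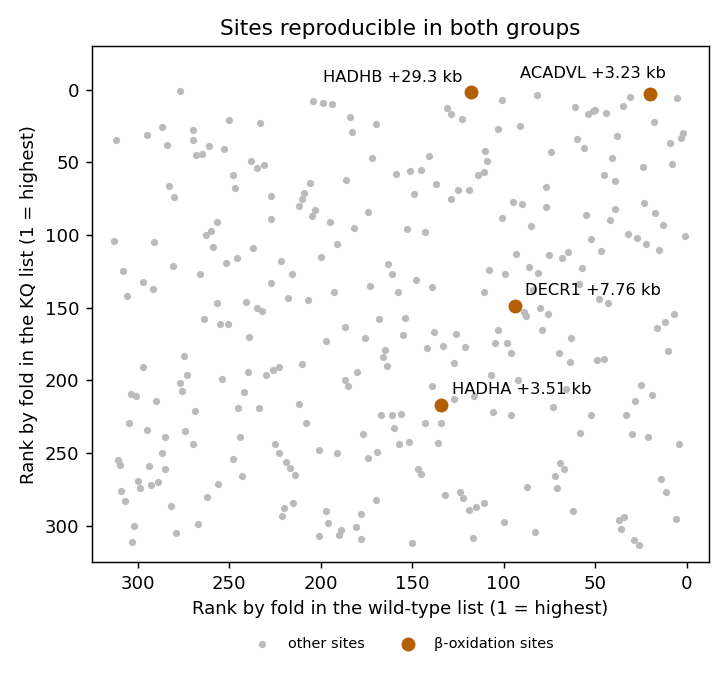
Place by fold in the pooled wild-type list (horizontal) and the pooled KQ list (vertical) of the 313 sites reproducible in both groups, with the highest fold at the top right. The 4 β-oxidation sites are named by gene and distance from its start (for DECR1 from the lower-coordinate end). The HADHB and ACADVL sites are at places 2 and 3 of the KQ order.

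KQ peaks near these genes lay inside or at the edge of the genes. Of the 8 reproducible wild-type sites inside a member gene 7 (87.5%) overlapped a pooled KQ peak, and of the 8 outside it 1 did, the ACAA2 promoter site. All 6 reproducible wild-type sites more than 5 kb outside lacked one, though the HADH site 11.1 kb upstream had a peak in KQ library 2. Over all reproducible wild-type peaks, 19.5% of those inside any protein-coding gene and 20.8% of those outside overlapped a KQ peak. The inside and outside shares were thus close over the whole list. That split is not the same as the member split. The ACADM sites in SLC44A5 and the ACAA2 site in MYO5B lie outside the member gene but inside another gene. With all 16 reproducible sites the share was 50.0% (exact binomial 95% interval 24.7 to 75.3), against 20.1% of all reproducible wild-type peaks. For the 31 pooled wild-type sites it was 29.0% (14.2 to 48.0), against 9.1%. The 8 sites with a KQ peak had wild-type folds between 7.27 and 23.6 with a median of 13.3. The 8 without had folds between 5.58 and 14.8 with a median of 9.1, so the ranges overlapped. Over the whole reproducible list these medians were 10.8 and 8.74. Summits within 1 kb of an end of a protein-coding gene made up 5 of the 16 (31.2%), against 5.54% of all reproducible wild-type peaks. They were the ACADVL site at 3.23 kb, the ACAA2 promoter site, the start-proximal HADH site and both ETFDH sites. Among the 5 reproducible KQ peaks 1 lay so, the ACADVL peak, against 7.91% of all reproducible KQ peaks.

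Some wild-type peaks lay near the assignment limit of 50 kb. The farthest pooled site inside it was the ACADVL peak at 49.0 kb (fold 8.06), and further ACADVL peaks lay at 45.4 and 45.6 kb. A peak of wild-type library 1 alone lay 49.8 kb from HADHB. The nearest pooled wild-type peak outside was 55.42 kb from HADHB (fold 7.97). Others followed at 60.65 kb from ACADVL and 61.27 kb from ETFDH. The nearest pooled KQ peak outside was 111.8 kb from DECR1 (fold 3.32).

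Elsewhere in the pathway, 14 other genes were listed under mitochondrial fatty acid oxidation. Of these, ACAD8, ACADSB, IVD, GCDH, HSD17B10 and ACAT1 act mainly in the breakdown of amino acids or ketone bodies. Among those only IVD had a reproducible wild-type peak. Of all 14 genes 6 (42.9%) had a reproducible wild-type peak within 50 kb and 1 (7.14%) had a reproducible KQ peak. Over all protein-coding genes the shares were 37.7% and 2.68%, so the wild-type share of this mixed list was near the background. The gene with a KQ peak was ETFA, a subunit of the electron transfer flavoprotein that feeds ETFDH, with a wild-type fold of 27.6 and a KQ fold of 6.47 at a site 0.131 kb outside the gene (chr15:76311386-76311802). ACAD10 followed in the wild-type list with a fold of 19.5 at a site 35.3 kb outside the gene. ETFB, the partner subunit of ETFA, had a wild-type site of fold 15.5 at 0.192 kb outside the gene and 2 pooled KQ peaks, neither of them reproducible. The carnitine shuttle brings fatty acids into mitochondria. All 5 genes listed under it had a reproducible wild-type peak, and CPT1A and CPT1B had a reproducible KQ peak. The strongest wild-type peak of CPT1C lay 48.7 kb outside the gene, near the limit of 50 kb. These counts too stand beside 37.7% and 2.68% of protein-coding genes. SLC25A20 had 2 pooled KQ peaks, neither of them reproducible. The highest wild-type folds of that list were 28.7 at CPT1B, 26.1 at CPT1A and 21.2 at SLC25A20, the carnitine-acylcarnitine carrier. The differences between these lists were not tested.

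HADHA, HADHB and DECR1 were among the few genes with more than 1 reproducible KQ site. Of 19970 protein-coding genes 17 had 2 or more within 50 kb, or 0.0851%. LAMA4 had 3, and each of the other 16 had 2. Besides the 3 members these were BCAS3, CYP2A6, CYP2A7, DLC1, DOCK4, FABP12, GRIA1, GSAP, IMPA2, LHFPL3, NBN, RAB30 and ZEB2. Neighbours that share a pair of sites, as HADHA and HADHB do, are counted separately here, and DECR1 shares its KQ sites with NBN. With wild type 14.1% of protein-coding genes had 2 or more reproducible peaks, and so did 8 of the 10 members.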

How the data were processed

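PPARγ ChIP-seq peak lists were used for 4 libraries, 2 per group, and for the pooled libraries of each group, 6 lists in all. The submitters' processing notes name hg38, Bowtie2 (version 2) for mapping and MACS2 for peak calling. Not given in the sources used here are the MACS2 settings and whether input served as control. The deposited lists give a fold enrichment (a ratio) per peak, −log10 of its p-value and q-value, a score made from the q-value, and the summit offset. The smallest −log10 q of a list lay between 1.3 and 1.41.

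Only chromosomes 1 to 22 and X were kept. Gene spans and promoter windows came from RefSeq GRCh38.p14, without exons or introns. Fold f and p were solved for a whole tag number t and background b, with f = (t + 1)/(b + 1) and a Poisson upper tail. Every peak was solved within 0.005 of its −log10 p, and 100% of 1964 simulated peaks were recovered. The total number of reads per library is unknown here. Poisson and binomial intervals cover counting error only, and PCR copies are not independent molecules. The p-values over libraries measure the spread between these samples only, which may be technical.

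Library counts were compared with an exact permutation test. Lists were described beside all genes or all peaks, with no test. Members, gene lists and tests were chosen with earlier results of these data known. Named genes are the members, genes that contain a reproducible member summit, pathway genes with a reproducible KQ peak or among the 3 highest wild-type folds, and genes with the most reproducible KQ peaks. The other genes named, GABARAP, DLG4, C4orf46, LOC107986298, CPT1C and the genes of amino acid or ketone body breakdown, were chosen after their values were seen. Alternatives were other windows, thresholds, overlaps, list lengths and libraries left out. Python 3.11.15, pandas 2.3.3, numpy 2.4.6, scipy 1.17.1 and matplotlib 3.10.9 were used.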

Additional observations from a re-analysis of the deposited data

How the results depend on the processing

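The number of member genes with a reproducible wild-type peak stayed between 6 and 8 in all windows, thresholds, overlaps, gene assignments and libraries tried, and was 4 when the list was shortened to the KQ length. The number with a KQ peak stayed between 4 and 6, and was 7 with all pooled peaks. The share of reproducible wild-type sites with a KQ peak, 50.0%, was 80.0% in the 5 kb window and 87.5% inside the gene spans. It was lower elsewhere, at 29.0% with all pooled peaks, 40.0% in the 100 kb window, 40.0% and 40.9% with a library left out, 45.5% with the stricter overlap and 46.2% with the stricter q. The median fold of 10.1 was 11.8 within 5 kb, 13.3 inside the genes and 7.21 with all pooled peaks, and lay between 8.46 and 9.10 with 1 wild-type library left out of the definition of a reproducible peak. These moves follow from which peaks each setting admits. The ratio of peak numbers, 3.53, lay between 2.93 and 4.13 without 1 library, and fell from 4.53 in the 100 kb window to 1.92 inside the genes. As a share of each list the ratio turned to 0.222, since the ratio was 15.7 over the whole lists and 3.53 near these genes. With libraries paired by replicate number as a block, the ratio was 3.53 (exact permutation p = 0.5, the smallest value 2 pairs allow). The labels do not say that a number marks a shared culture or day, and whether same-numbered libraries deviate together could not be computed from 2 pairs of peak lists.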
